A study of Mus musculus with 4 samples.

Results

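The Gadd45 family was examined in the liver of vitamin C-treated Wrn mutant mice. Its members were taken as every row of the deposited table whose symbol was Gadd45a, Gadd45b or Gadd45g, which gave 3 of the 26110 genes tested, on 4 of 41174 non-control probes. The genes tested include probes without a gene name, each counted as a gene of its own. The family was selected on its mutant over wild-type ratios in these arrays, so those ratios and the levels behind them are a description and carry no test. Gadd45b has 2 probes, and the other genes have 1 each. Liver RNA of 4 male C57Bl/6 mice with a mutant Wrn protein, aged 3 months and drinking water with vitamin C at 0.4% after weaning, was labelled with Cy5. Liver RNA of 4 male wild-type C57Bl/6 mice of the same age, which received no vitamin C, was labelled with Cy3. Each of 4 two-colour Agilent arrays carried 1 animal of each kind, and the labels call the 4 pairs biological replicates. Wrn encodes a DNA helicase of the RecQ type, and the mutant allele is not described further in the labels. Every ratio sets treated mutants in Cy5 against untreated wild types in Cy3, so the parts of genotype, vitamin C and dye cannot be told apart.

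The Gadd45 proteins are small acidic proteins without enzymatic activity that are made when a cell meets DNA damage, cytokines or metabolic stress. They act by binding other proteins: the kinase MTK1 (Map3k4) upstream of p38 and JNK, the Cdk1 and cyclin B1 complex, PCNA, p21 and several nuclear receptors. Gadd45a is a p53 target, Gadd45b is induced by NF-kB and TGF beta and can hold back JNK signalling through MKK7 (Map2k7), and Gadd45g is induced by cytokines. In the liver, Gadd45b is known as an early response gene of regeneration and as a coactivator of the receptor CAR (Nr1i3).

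The 4 probes are single spots of 60 bases, and each gene is read only through the bases its probe covers. The last 30 bases of each are shown because the probes are the only view of each transcript and because the pair on Gadd45b reads separate stretches of 1 mRNA; capitals mark the polyadenylation signal AATAAA.
Gadd45a, A_51_P296608: aagaaaactgctaatttaggatggccaggt
Gadd45b, A_51_P500984: agagacattccAATAAActcgttaagcctt
Gadd45b, A_52_P1197913: actccaaacatctaaagcaactgtcgagtt
Gadd45g, A_51_P315904: acggatcccgggcaatgctttcattttcta
AATAAA, searched on the probe's own strand, was present in 1 of the 4 probes and in 4.78% of the 41174 probes. The longest run of bases that any 2 of the 4 probes shared was 7, and the 2 Gadd45b probes shared 5.

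The 250 bases before each transcription start are given because the ratio of Gadd45g had the opposite sign to those of the other members. The sequences are those of RefSeq on GRCm38.p6, all 3 genes matched by symbol, and the build of the array annotation was mm9. They are written on the gene's strand, with capitals at 5 motifs on either strand: TATAAA (the TATA box), CCAAT (read by NF-Y), GGGCGG (the GC box of Sp1), TGACG (the core of the cAMP response element) and the octamer ATGCAAAT (read by POU factors such as Oct-1). Gadd45a lies at chr6:67037408-67037657 on the minus strand, Gadd45b at chr10:80929841-80930090 on the plus strand and Gadd45g at chr13:51846425-51846674 on the plus strand.
Gadd45a: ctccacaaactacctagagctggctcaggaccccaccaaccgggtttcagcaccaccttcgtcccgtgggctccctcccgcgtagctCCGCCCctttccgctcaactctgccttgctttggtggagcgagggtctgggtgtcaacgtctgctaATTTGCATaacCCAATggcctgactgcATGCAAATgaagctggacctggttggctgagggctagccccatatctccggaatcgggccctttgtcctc
Gadd45b: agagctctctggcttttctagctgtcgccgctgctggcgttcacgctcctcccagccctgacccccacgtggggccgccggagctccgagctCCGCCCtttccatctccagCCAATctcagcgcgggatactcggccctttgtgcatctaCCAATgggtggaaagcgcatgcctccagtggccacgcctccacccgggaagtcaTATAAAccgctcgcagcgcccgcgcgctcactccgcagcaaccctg
Gadd45g: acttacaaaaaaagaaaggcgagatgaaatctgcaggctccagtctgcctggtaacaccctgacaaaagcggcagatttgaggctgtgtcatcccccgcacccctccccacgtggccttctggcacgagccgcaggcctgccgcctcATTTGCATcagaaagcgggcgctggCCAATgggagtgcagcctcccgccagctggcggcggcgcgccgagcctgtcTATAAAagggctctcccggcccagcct
All 3 windows held CCAAT, which 33.8% of 32851 windows of this length hold on either strand. The octamer occurred at positions -97 and -70 of Gadd45a and at -103 of Gadd45g, counted from the start with -1 as the base before it, and in 1.60% of all windows. TATAAA stood at -46 in Gadd45b and at -27 in Gadd45g but not in the window of Gadd45a (12.4% of all windows). GGGCGG was found in Gadd45a and Gadd45b (32.7% of all windows), and the E-box CACGTG in Gadd45b and Gadd45g (6.02%). A p53 half-site lay at -40 of Gadd45a, where it overlapped a loose form of the NF-kB element, GGG and CC with any 5 bases between them. On either strand, 7.13% of all windows hold the half-site and 45.8% the NF-kB form, which also matched Gadd45g. A match is a stretch of letters and not evidence of binding. TGACG (17.8% of all windows), the FoxO element GTAAACA (3.17%), TTCNNNGAA of the STAT factors (7.02%) and GCGTGGGCG of Egr1 (0.536%) had no match in the 3 windows. The GC content of the windows was 59.2% for Gadd45a, 65.2% for Gadd45b and 62.0% for Gadd45g, against a median of 52.4%.

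An array had 82.5% to 95.6% of its probes well above background for the mutant and 84.2% to 96.1% for the wild type, with the lowest shares on array 1. With 4 arrays, precision is set by their number. All 6 hepatocyte markers measured were well above background in all channels. Both animals of array 4 stood apart in Lcn2, an acute phase gene, whose normalised log2 intensity was 12.35 in the mutant and 15.55 in the wild-type animal of that array, against 8.44 to 8.84 in the other mutants and 8.81 to 9.27 in the other wild-type animals. Saa1, another acute phase gene, was at 14.44, 13.99, 15.14 and 15.50 in the mutants of arrays 1 to 4 and at 15.40, 16.41, 17.48 and 19.69 in the wild-type animals, and fell by 2.48 (SD 1.32, n = 4; limma adjusted p = 0.0239), a call lost without array 2 or 3. Wrn was at 0.00 ± 0.02 (SD, n = 4) on the log2 scale by its brightest probe. The mean of its probes was at 0.12 (limma adjusted p = 0.0906). Neither value is a check of the genotype because the positions of the probes against the mutation are unknown here. All ratios below are log2 of mutant over wild type after loess normalisation within each array.

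Gadd45g was higher in the mutant on every array. Its log2 ratio was 1.70, 0.95, 1.74 and 1.00 on arrays 1 to 4, a mean of 1.35 ± 0.43 (SD, n = 4). As linear folds these were between 1.93 and 3.35, with 2.54 at the mean. Arrays 1 and 3 gave the higher pair of ratios and arrays 2 and 4 the lower pair. The SD of the ratio was at percentile 98.5 of all genes, whose median ratio SD was 0.10. Of 26110 genes tested, 0.0383% had a ratio at or above that of Gadd45g.

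Gadd45a was lower in the mutant on every array. Its log2 ratio was -0.83, -0.49, -1.20 and -0.23 on arrays 1 to 4, a mean of -0.69 ± 0.42 (SD, n = 4), or 1.61-fold lower. Array 3 held the largest difference and array 4 the smallest, and 0.287% of genes had a ratio at or below the mean. The SD of the Gadd45a ratio was at percentile 98.4 of all genes.

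Gadd45b was also lower in the mutant on every array, by less. The brighter probe, A_52_P1197913, gave -0.16, -0.28, -0.19 and -0.48 on arrays 1 to 4, a mean of -0.27 ± 0.14 (SD, n = 4), or 1.21-fold lower. The dimmer probe, A_51_P500984, gave -0.08, -0.21, -0.21 and -0.52, a mean of -0.25 ± 0.19. As normalised here the probes differed by at most 0.08 on any array although they share no long stretch of bases. With Agilent's processed signals their means were further apart, at -0.23 on the brighter and -0.46 on the dimmer probe. In the ratios given for each array, array 1 had the smallest difference and array 4 the largest on both probes. A ratio at or below the brighter probe's mean was found in 4.79% of genes. A single sign on all 4 arrays, which each of the 4 probes had, was shared by 40.4% of genes.

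**Figure D1:**
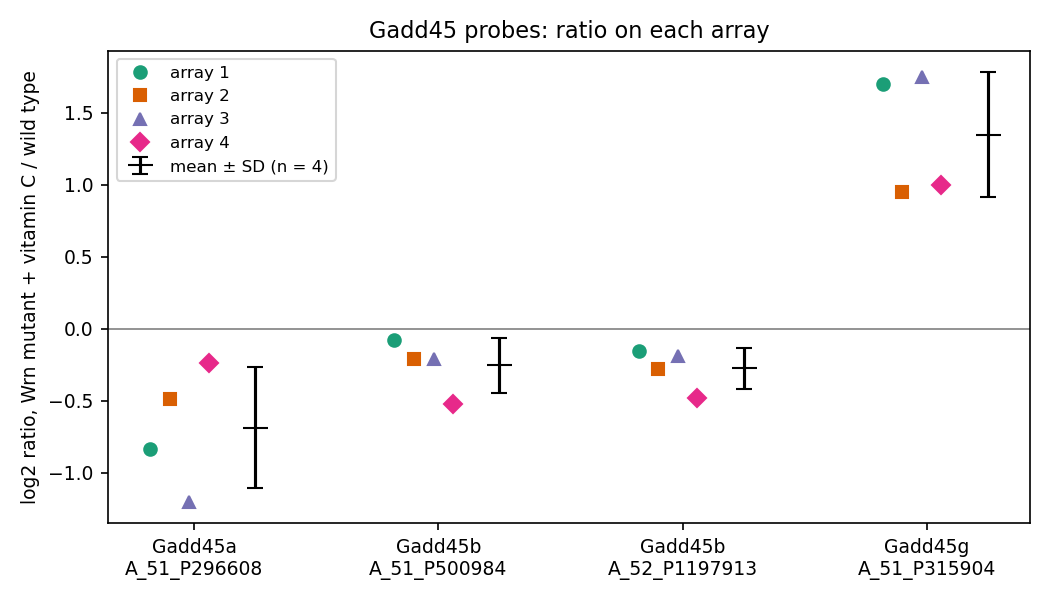
Log2 ratio of the Wrn mutant with vitamin C over wild type (y axis) for the 4 Gadd45 probes (x axis), with 1 point per array and the mean ± SD over 4 arrays in black. Gadd45g lies between 0.95 and 1.74 and the other probes below 0, with Gadd45a spread from -1.20 to -0.23.

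Within each array the members kept apart. The ratio of Gadd45g minus that of Gadd45a was 2.53, 1.43, 2.94 and 1.23 on arrays 1 to 4, with a mean of 2.04 ± 0.83 (SD, n = 4). Gadd45g minus Gadd45b was 1.86, 1.22, 1.93 and 1.48, a mean of 1.62 ± 0.33. Arrays 1 and 3 held the largest ratio of Gadd45g and also the lowest ratios of Gadd45a. Gadd45a minus Gadd45b was -0.67, -0.21 and -1.01 on arrays 1, 2 and 3 but 0.24 on array 4, so the order of these genes differed between arrays.

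The level of each animal separates the mutant and wild-type sides of a ratio. Levels are normalised log2 intensities of 1 probe, are open to dye bias, and are not set against those of another probe. Gadd45g stood at 14.73, 13.69, 14.35 and 14.61 in the mutants of arrays 1 to 4, against 13.03, 12.74, 12.60 and 13.61 in the wild-type animals. The groups did not overlap, with the lowest mutant 0.08 above the highest wild-type animal. All mutants were above all wild-type animals in 3.28% of genes, and the groups were apart in either direction in 7.45%. Gadd45g varied widely between animals, with an SD of 0.47 among mutants and 0.45 among wild-type mice, at the percentiles 91.3 and 90.6 of all genes. The median SD over genes was 0.17 among mutants and 0.18 among wild-type mice.

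Gadd45a stood at 10.88, 11.01, 10.65 and 11.22 in the mutants of arrays 1 to 4, against 11.71, 11.49, 11.85 and 11.46 in the wild-type animals. All mutants lay below all wild-type animals, with a gap of 0.23, which 4.17% of genes also showed in this direction. The SD was 0.24 among mutants and 0.19 among wild-type mice, at the percentiles 67.7 and 52.4 of all genes. The highest mutant and the lowest wild-type animal shared array 4, and the lowest mutant and the highest wild-type animal shared array 3.

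The brighter Gadd45b probe stood at 8.85, 8.80, 9.30 and 9.15 in the mutants of arrays 1 to 4, against 9.01, 9.07, 9.49 and 9.63 in the wild-type animals. On the dimmer probe the mutants had 7.91, 7.69, 7.82 and 7.69 and the wild-type animals 7.99, 7.90, 8.03 and 8.21. The groups overlapped on both probes. The range among mutants was 0.51 on the brighter probe, wider than the mean ratio, and 0.22 on the dimmer one. The wild-type animal of array 4, which had the highest Lcn2, also had the highest Gadd45b on both probes and, among wild-type animals only, the highest Gadd45g. Without array 4 the mean ratio was -0.21 on the brighter and -0.17 on the dimmer Gadd45b probe, -0.84 for Gadd45a and 1.46 for Gadd45g. The part of the state of the animals of array 4 in these values was not tested.

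**Figure D2:**
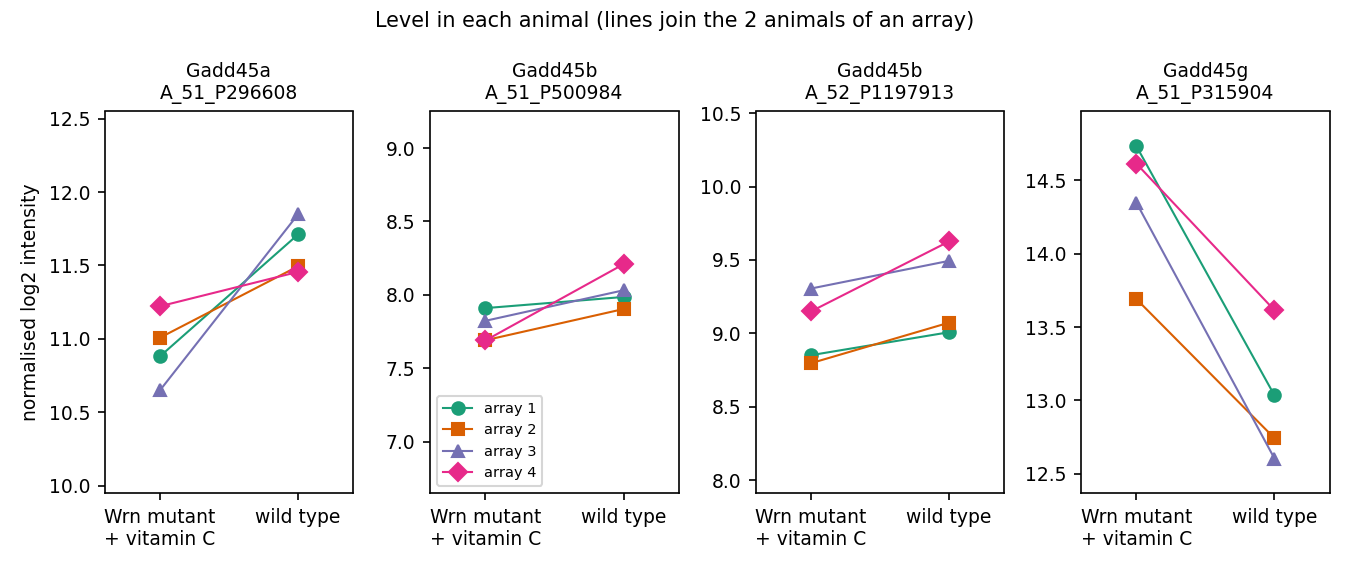
Normalised log2 intensity (y axis) of each Gadd45 probe in the Wrn mutants with vitamin C (left) and the wild-type animals (right), with lines joining the 2 animals of an array and the same length of axis in each panel. The groups are apart for Gadd45a and Gadd45g, by 0.23 and 0.08, and overlap on both Gadd45b probes.

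The raw spots show how much of each ratio came from the scanner readings and how much from the normalisation. The Gadd45g spot had raw median intensities of 28542, 14958, 25521 and 35080 in the mutant channel of arrays 1 to 4, against 7508, 6293, 4962 and 9208 in the wild-type channel. After subtraction of the local background alone, its log2 ratio was between 1.25 and 2.37, with a mean of 1.87, against 1.35 after normalisation. The Gadd45a spot had 1874, 2260, 2023 and 3122 in the mutant channel, against 2988, 2814, 3050 and 2219 in the wild-type channel. Before normalisation the ratio of Gadd45a averaged -0.29, against -0.69 after it. On array 4 its ratio before normalisation was positive, at 0.49, while the median over all spots of that array was 0.68.

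For Gadd45b the readings of the channels were close. The brighter probe had 440, 515, 807 and 747 in the mutant channel of arrays 1 to 4, against 442, 549, 623.5 and 657 in the wild-type channel. Its ratio before normalisation averaged 0.08 and that of the dimmer probe 0.05, and the mean ratios of both became negative with the normalisation, which removes the higher overall reading of the red channel. The median raw log2 ratio over all spots was 0.13, 0.16, 0.57 and 0.68 on arrays 1 to 4. Both Gadd45b probes were well above background on all arrays but dim, at 3.92 to 14.0 times the local background, whereas Gadd45a was at 33.5 to 74.7 times and Gadd45g at 103 to 484 times. None of the 4 spots was saturated or carried an outlier flag.

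All 4 probes kept their sign under the 10 other processings tried, though not all of these could have changed it. Leaving out an array cannot turn a sign that all arrays share, and keeping flagged spots changed nothing because no member spot was flagged. The authors' ratios nearly repeat local background subtraction with loess. Gadd45g ranged between 1.22 and 1.53, and Gadd45a between -0.84 and -0.52. The brighter Gadd45b probe ranged between -0.31 and -0.21, and the dimmer probe between -0.46, with Agilent's processed signals, and -0.17. The authors' deposited table gives 1.35 for Gadd45g, -0.70 for Gadd45a, and -0.30 and -0.31 for the brighter and dimmer Gadd45b probes.

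**Figure D3:**
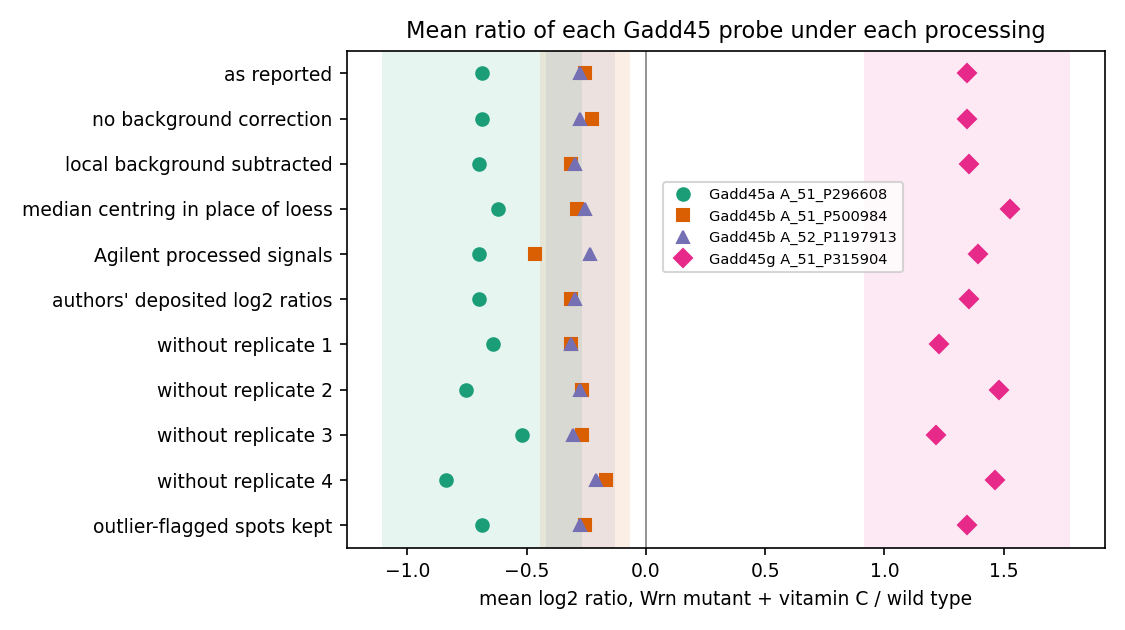
Mean log2 ratio of the Wrn mutant with vitamin C over wild type (x axis) of each Gadd45 probe as reported (top) and under each other processing (rows), with shaded bands for the mean ± SD as reported. No point crosses 0, and the dimmer Gadd45b probe lies outside its band with Agilent's processed signals, at -0.46.

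Genes around the family were taken as 7 lists of 97 genes in all. The lists hold its partners and downstream kinases, genes that switch it on, other growth arrest and damage genes, and immediate early genes. Each gene was represented by its brightest probe and tested with limma over all genes, with Benjamini-Hochberg adjustment. Of the 97 genes 20 passed at an adjusted p under 0.05, 6 higher and 14 lower in the mutant, a share of 20.6% against 12.2% of all genes tested (6.64% higher and 5.57% lower). The immediate early list alone gave 8 of these calls, 1 higher and 7 lower, so the share is not one of partners and regulators alone. With median centring in place of loess 28 passed, 15 higher and 13 lower, so the balance of directions depended on the scaling. Leaving out arrays 1, 2, 3 or 4 left 9, 3, 10 and 11 of the 97 genes. Of all genes tested 545, 49, 1358 and 468 then passed, against 3189 with all arrays. The calls of single genes given below as lost without an array are part of this drop over all genes. The lists were chosen with earlier results of these data known, so the shares are not independent evidence about them.

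On the list of kinases downstream of the family, which includes the transcription factor Atf2, 0 of 14 genes passed in limma. Of these genes 3 (21.4%) had an unadjusted p under 0.05 against 32.2% of all genes, and the median log2 ratio was -0.05 against 0.01 over all genes. Map2k3, an activator of p38, was at -0.19 ± 0.09 (SD, n = 4; limma adjusted p = 0.0527) and Mapk12, a p38 kinase, at -0.17 ± 0.08 (limma adjusted p = 0.0602). MTK1, the direct partner encoded by Map3k4, was at 0.06 ± 0.08 (limma adjusted p = 0.427).

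Among 12 partners in the cell cycle, repair and DNA demethylation, 1 was higher and 1 lower (16.7% of the list, against 12.2% of all genes). Of this list 41.7% had a limma unadjusted p under 0.05, against 32.2% of all genes. Pcna, the sliding clamp of DNA replication, rose by 0.22 ± 0.09 (SD, n = 4; limma adjusted p = 0.0374), and Ercc5, the XPG endonuclease of nucleotide excision repair, fell by 0.23 (SD 0.05; limma adjusted p = 0.0272). Pcna did not pass when any 1 array was left out, and Ercc5 did not pass without array 1, 2 or 4. The mitochondrial Gadd45 interactor Gadd45gip1 was at -0.14 ± 0.07 (limma adjusted p = 0.0911), with its other probe at 0.10. Of 10 nuclear receptors 1 was lower and 0 higher (10% of the list), and 30% had a limma unadjusted p under 0.05. The lower gene, Ppara, which drives fatty acid oxidation, was at -0.21 ± 0.10 (limma adjusted p = 0.0471). Ppara did not pass when any 1 array was left out, and with median centring its ratio turned to 0.17. With median centring that list gave 1 higher gene and 0 lower. Nr1i3, the receptor that Gadd45b coactivates, was at -0.24 ± 0.20 (limma adjusted p = 0.0900).

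Among 21 transcription factors known to act on Gadd45 genes, 2 were higher and 2 lower (19% of the list, against 12.2% of all genes). Of these factors 57.1% had a limma unadjusted p under 0.05, against 32.2% of all genes. Myc, which represses Gadd45a, rose by 0.94 ± 0.41 (SD, n = 4; limma adjusted p = 0.0173), with its other probes at 1.07 and 0.27, and did not pass without array 1. Foxo1, an activator of Gadd45a that insulin signalling restrains, fell by 0.60 (SD 0.05; limma adjusted p = 0.00476), on each array by between 0.56 and 0.66, with its other probe at -0.21. Its call held under all 12 other settings tried, where the adjusted p reached 0.0489. The remaining pair disagreed between probes: Cebpa was at -0.41 ± 0.13 (limma adjusted p = 0.0163) with its other probe at 0.15, and Foxo3 at 0.25 ± 0.04 (limma adjusted p = 0.0211) with its other probe at -0.15. Cebpa did not pass without array 2, nor Foxo3 without array 1, 2 or 4. Trp53, the gene of p53, was at 0.04 ± 0.15 (limma adjusted p = 0.735), with its other probe at -0.36. Without array 1 the list gave 0 higher and 2 lower, without array 2 it gave 1 and 1, and without array 4 it gave 1 and 3. With median centring it gave 5 higher and 3 lower.

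Of 12 inducing cytokines and receptors 1 passed (8.33% of the list, against 12.2% of all genes). A limma unadjusted p under 0.05 was found for 16.7%, against 32.2% of all genes. The gene that passed, Il1r1, the receptor of interleukin 1, fell by 0.61 (SD 0.30, n = 4, limma adjusted p = 0.0232), a call lost without array 2, 3 or 4. The ligands Tnf, Il6, Il1b and Tgfb1 were at 0.03, -0.06, -0.01 and -0.20, none past the test.

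Among 17 other growth arrest and damage genes, 2 were higher and 2 lower (23.5% of the list, against 12.2% of all genes). Of this list 47.1% had a limma unadjusted p under 0.05, against 32.2% of all genes. Ddit4, an inhibitor of mTORC1, rose by 0.44 ± 0.25 (SD, n = 4; limma adjusted p = 0.0324), and Ccng1, a p53 target, by 0.27 ± 0.07 (limma adjusted p = 0.0226), with its other probe at 0.33. Ppp1r15a, known as Gadd34 and a regulator of eIF2 alpha phosphorylation, fell by 0.57 (SD 0.28; limma adjusted p = 0.0244), and Plk2, a stress-induced polo-like kinase, fell by 0.38 (SD 0.08; limma adjusted p = 0.0138). Ddit3, known as Gadd153, was at 0.09 ± 0.11 (limma adjusted p = 0.312). The p53 targets Cdkn1a and Mdm2 were at 0.15 ± 0.03 (limma adjusted p = 0.0585) and -0.34 ± 0.24 (limma adjusted p = 0.0552). The other probe of Mdm2 was at 0.03. The 4 calls were lost without array 2; Ddit4 was also lost without array 1 or 3, Ccng1 when any 1 array was left out and Ppp1r15a without array 3 or 4. With median centring the list gave 4 higher and 2 lower, and without arrays 1, 3 or 4 the list gave 2, 2 and 3.

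The immediate early genes, which respond within minutes to growth factors and stress as Gadd45b does, had 7 of 15 members lower and 1 higher, against 5.57% and 6.64% of all genes. Their median log2 ratio was -0.39 against 0.01 over all genes, and 13 of 15 ratios were negative. A limma unadjusted p under 0.05 was found for 86.7% of them, against 32.2% of all genes. Dusp1, a phosphatase of p38 and JNK, fell by 1.32 (SD 0.28, n = 4; limma adjusted p = 0.00543), with ratios of -1.21, -1.37, -1.68 and -1.03 on arrays 1 to 4. Its call held under all 12 other settings, where the adjusted p reached 0.0491. Junb, a subunit of AP-1, fell by 0.88 (SD 0.46; limma adjusted p = 0.0238), with its other probe at -0.38, and did not pass without array 1, 2 or 3. Fos, Jun, Ier2, Ier3 and Zfp36 were the other lower genes, with log2 ratios of -0.75, -0.85, -0.39, -0.27 and -0.50. The other probe of Ier2 was at 0.04. Fosb, another AP-1 subunit, was the higher gene, at 0.17 ± 0.04 (limma adjusted p = 0.0463), and did not pass when any 1 array was left out. Egr1 was at -0.95 ± 0.73 and did not pass (limma adjusted p = 0.0525). Without arrays 1, 2, 3 or 4 the lower genes numbered 3, 1, 3 and 5, and the higher genes 0 each time. Over all genes, 321, 29, 689 and 239 were then lower and 224, 20, 669 and 229 higher.

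**Figure D4:**
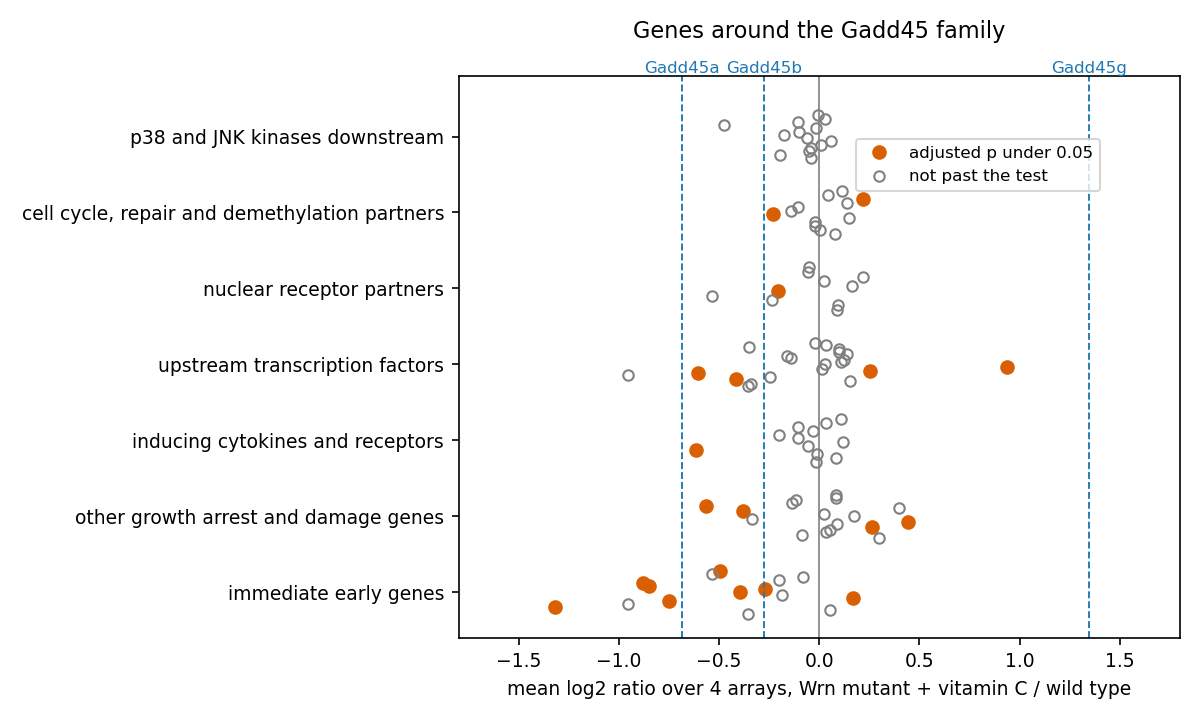
Mean log2 ratio over 4 arrays of the Wrn mutant with vitamin C over wild type (x axis) for each gene of the 7 lists (rows), filled where the limma adjusted p was under 0.05, with dashed lines at the mean ratios of the 3 Gadd45 genes. Of the 15 immediate early genes 7 are filled to the left of 0 and 1 to the right, and in the kinase list 0 of 14 are filled.

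RNA from whole liver cannot separate fewer cells of a type from less RNA per cell. The mean log2 intensity of the 6 hepatocyte markers lay between 16.48 and 16.58 in mutants and between 16.05 and 16.49 in wild-type animals. By limma 3 of them were higher and 1 lower (66.7% of the list, against 12.2% of all genes). Alb, Apoa2 and Ttr were higher, at 0.85, 0.84 and 0.46, and Hnf4a was lower, at -0.25 with its other probes at -0.01 and -0.15. Cyp2e1, at -0.27, and Cps1, at 0.10, did not pass. The 6 endothelial markers lay between 11.61 and 11.75 in mutants and between 11.72 and 12.01 in wild-type animals, with 2 lower (33.3% of the list). These were Clec4g, at -0.35 with its other probes at 0.04 and 0.11, and Kdr, at -0.24 with its other probe at 0.08. None of the 6 Kupffer cell markers passed limma's adjusted threshold, and 0 had an unadjusted p under 0.05, against 32.2% of all genes; their mean lay between 11.73 and 11.98 in mutants and between 11.70 and 12.21 in wild-type animals. Of 5 stellate and 4 cholangiocyte markers 1 each was lower (20% and 25% of the lists). None of the 4 T and NK cell, 3 B cell, 3 neutrophil and 2 erythroid markers measured passed limma's adjusted threshold, with 2 B cell markers and 1 neutrophil marker at an unadjusted p under 0.05. Of the lower pair, Col1a1 of the stellate list was at -0.34 with its other probes at -0.43 and 0.06, and Sox9 of the cholangiocyte list at -0.58 with its other probes at 0.01 and -0.23. The part of these markers in the Gadd45 ratios was not tested.

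The genes whose levels followed each member most closely were found over the 8 channels after each group was centred on its mean, among 18167 genes well above background in every channel. The 8 points share arrays in pairs and dyes within groups, so the correlations are a description. For Gadd45g the highest Pearson r was 0.97 with Ankrd12, followed by 0.96 each for Trafd1, Mst1 and Sdf2l1. For Gadd45a it was 0.97 with Adal, followed by 0.96 for Ddx49, 0.96 for Glod4 and 0.95 for Mettl26. For Gadd45b it was 0.96 with Atp8b4, followed by 0.95 each for Plxnb2, Inpp5e and Fance. The members did not track each other closely: r was -0.25 between Gadd45a and Gadd45g, -0.17 between Gadd45a and Gadd45b and 0.38 between Gadd45b and Gadd45g. The 4 genes closest to Gadd45g in level all had a mean log2 ratio of the opposite sign: Ankrd12 -0.34, Trafd1 -0.09, Mst1 -0.08 and Sdf2l1 -0.32, with Mst1 at 0.36 under median centring. Of these, Ankrd12 passed (SD 0.15, n = 4; limma adjusted p = 0.0259), but not without array 1, 2 or 4. Of those closest to Gadd45b, Plxnb2 was at -0.27 ± 0.13 (limma adjusted p = 0.0351), lost without array 1, 2 or 4, and Fance, of the opposite sign, at 0.18 ± 0.07 (limma adjusted p = 0.0464), a call lost when any 1 array was left out. The 4 genes closest to Gadd45a had mean ratios from -0.11 to -0.03 and did not pass.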

How the data were processed

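Liver RNA of 4 Wrn mutant and 4 wild-type mice was measured on 4 two-colour arrays on 1 slide with 1 scan time. Median intensity values of spots and local background come from Agilent Feature Extraction 10.5.1.1 with mm9 annotation, per the file headers. Per the file headers, the same software gave processed signals and a log10 ratio. A table the authors deposited holds log2 ratios, p-values and scores (log odds and a moderated statistic among them); the submitters' processing notes list limma. The deposited log2 ratios followed local background subtraction and loess (r of at least 0.999 across probes).

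Here, median intensities stood in for the mean intensities named in the plan. Background was corrected with normexp (offset 50) and ratios by loess in R 4.3.3 with limma 3.58.1. Control and outlier-flagged spots were removed. Of 41174 probes, 39083 were well above background in 1 channel on at least 3 arrays. Levels followed Aquantile normalization. The mean ratio was tested against 0 with lmFit and eBayes over 26110 genes, each by its brightest probe. Names came from RefSeq by accession, symbol or older symbol, and 15.0% of probes had none. Kept probes without a name were each tested as a gene, so the shares of all genes include them. The test was tried on simulated data with noise drawn independently for each gene and array. That trial holds no dye or array effects, so it does not bear on the calls made here. Named are all member probes, per list up to 2 passing genes of largest ratio in each direction with 1 sign on all arrays (or the 2 of smallest p), and 4 genes per member by level, and Lcn2, Saa1 and Wrn. Map3k4, Gadd45gip1, Nr1i3, Trp53, Ddit3, Cdkn1a, Mdm2, Egr1, the cytokines, the named cell type markers and the remaining lower immediate early genes were picked after their values were seen. The members and lists were chosen with earlier results of these data known. Alternatives covered background, normalization, signals, authors' ratios, filter, probes, flags, pairing and leaving out arrays.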

Additional observations from a re-analysis of the deposited data

Results flagged for a closer look

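The sets examined were the ratios, mutant levels and wild-type levels of the Gadd45 probes and of the genes named by rule. Genes picked after their values were seen were not examined. Of 108 sets of 4 values, 7 had 1 sample far from the others, where chance marks about 1 in 20. None of the 7 belonged to a Gadd45 probe. Lcn2 in array 4 was at 12.35 in the mutant, against 8.44 to 8.84 in the other mutants, and at 15.55 in the wild-type animal, against 8.81 to 9.27. The log2 ratio of Map2k3 was -0.053 on array 2, against -0.25 to -0.24 on the others. Ercc5 had a wild-type level of 9.09 on array 1, against 9.60 to 9.67, and Cebpa a wild-type level of 14.40 on array 3, against 14.15 to 14.16. On array 2, the mutant level of Junb was 13.76, against 14.21 to 14.27, and that of Ankrd12 was 10.15, against 10.45 to 10.49.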

How the results depend on the processing

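The 4 Gadd45 probes kept their direction under 10 alternatives each, of which leaving out an array and keeping flagged spots could not have turned it. Among all these values 1 moved by more than its SD: the dimmer Gadd45b probe was at -0.46 with Agilent's processed signals, against -0.25. Leaving out 1 array gave 1.22 to 1.48 for Gadd45g, -0.84 to -0.52 for Gadd45a, and -0.31 to -0.21 and -0.31 to -0.17 for the Gadd45b probes. Of all genes, 3189 passed (54.4% higher); there were 4921 with median centring (3416 higher and 1505 lower, or 69.4% higher), 810 with Agilent's processed signals, and 49 to 1358 with 1 array left out. Of the 97 listed genes 20 passed (6 higher and 14 lower), 28 with median centring (15 higher and 13 lower), 9 with Agilent's processed signals and 3 to 11 with 1 array left out. With no replicate block, the pairing of channels within arrays not being modelled, 24 genes and 2 listed genes passed. With median centring the ratios of Ppara and Mst1 turned to 0.17 and 0.36. The cause of these shifts was not tested. The Gadd45b probes, at 3.92 to 14.0 times the local background, are the members that low signal limits most.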
